A study of Mus musculus with 2 samples.

Results

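Enzymes that remove superoxide and peroxides, together with the glutathione and thioredoxin systems that keep them reduced, were followed in brown preadipocytes at D0 and in brown adipocytes at D7. The genes were chosen by their symbols alone and comprised the glutathione peroxidases (Gpx), peroxiredoxins (Prdx) and sulfiredoxin, superoxide dismutases (Sod), cytosolic and microsomal glutathione S-transferases (Gst, Mgst), thioredoxins and their reductases, glutaredoxins, the enzymes of glutathione synthesis and recycling, the quinone reductases and the regulators Nfe2l1, Nfe2l2, Nfe2l3 and Keap1. Of the 23361 genes with values, 63 had such a symbol. Prdx6-ps1 also matched by its symbol but carried no value and was not used.

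RNA-Seq was performed on 1 library per stage. The cells came from interscapular brown fat of newborn C57BL/6 mice, and the GEO labels call them primary cultures, whereas the methods of the study describe immortalization with large T antigen. The cells were grown with 20% serum, and both stages had then been kept in medium with 10% serum, insulin at 0.1 μM and the thyroid hormone T3 at 1 nM from 4 days before induction, as the labels describe it. The D7 cells had in addition received dexamethasone at 2 μg/ml, indomethacin at 0.125 mM and IBMX at 0.5 mM for the first 2 days, where dexamethasone is a glucocorticoid and IBMX blocks the breakdown of cAMP. The methods of the study give other concentrations of insulin and dexamethasone. Several pups of 1 C57BL/6J mother were used, and whether their cells were pooled for these libraries is not given in the sources used here. With 1 library per stage no difference had a replicate check, no p-value was computed, and stage and library cannot be told apart.

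Superoxide dismutases turn superoxide into hydrogen peroxide. Peroxiredoxins and glutathione peroxidases reduce hydrogen peroxide and lipid peroxides, and are themselves reduced by thioredoxin or by glutathione. Glutathione S-transferases join glutathione to reactive compounds, and both thiol systems draw their electrons from NADPH. Many of these genes are known targets of NRF2 (the product of Nfe2l2), which binds antioxidant response elements and is held back by KEAP1. Brown adipocytes are rich in mitochondria, where much of the superoxide of a cell is formed.

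The deposited values are FPKM, fragments per kb of transcript scaled to the size of the library, so that levels can be compared between genes of a library. How many fragments lay behind a value was worked out from the values themselves, and the 95% intervals given for the ratios of D7 to D0 are exact Clopper-Pearson intervals on those fragments. They cover counting error only and are approximate, since the transcript behind each value is known only in part. The D0 library was scaled to 21472000 fragments and the D7 library to 18266000. The markers of adipocytes went with the labels. Of 10 of them, 9 were above 0 in both libraries and all 9 were at least 2.0-fold higher at D7, and 5 of 9 brown adipocyte markers were listed at 0 at D0 only. Proliferation genes were lower in 7 of 8 cases. Macrophage genes were higher in 10 of 11 cases, with a summed FPKM of 155 at D0 and 580 at D7 and none of them at 0. Of 6 erythroid genes 5 were listed at 0 in both libraries, and the summed FPKM of 6 endothelial genes was 1.62 at D0 and 2.69 at D7. The part of the macrophage and proliferation genes in the results was not tested, and in such bulk samples fewer cells of a type cannot be told apart from less RNA per cell.

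Of the 63 genes, 54 had an FPKM above 0 in both libraries. Of these, 16 (29.6%) were higher at D7, with a ratio of 2.0 or more, and 6 (11.1%) were lower, with a ratio of 0.5 or less. Over all 14986 genes above 0 in both libraries, 18.5% were higher at D7 and 13.2% were lower by the same rule. The median log2 ratio of the 54 genes was 0.25, beside 0.02 over all genes. Another 7 genes were listed at 0 in both libraries (Gpx2, Gpx2-ps1, Gpx5, Gpx6, Gsta2, Gstm3 and Prdx6b), Gsta1 had about 1 fragment at D0 and none at D7, and Gstt4 had none at D0 and about 2 at D7. A count of 0 allows up to 3 fragments, so no change of Gsta1 and Gstt4 was detectable at this depth. Scaling to the median of each library, with 0.01 as the lowest FPKM, shifted the log2 ratio of each gene above that floor by -0.35. Under this scaling 13 genes were higher and 11 lower, so that the higher genes made up 54.2% of the changed ones in place of 72.7%, beside 17.0% higher and 23.0% lower among all 16671 genes above 0 in a library. These 13 and 11 include Gstt4 and Gsta1, and the median log2 ratio of the genes then was -0.11.

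A mean FPKM of at least 1 over both libraries was reached by 53 genes. Of these 15 were higher and 6 lower, beside 14.6% and 11.4% of the 11585 genes at this level and above 0 in both libraries. At 4.0-fold 7 of the 53 were higher and 1 was lower (Gsto1). Over the 54 genes above 0 in both libraries the numbers were 8, with Nfe2l3 from about 1 fragment at D0, and 1, beside 8.08% and 3.86% of the 14986 genes. The intervals of 10 of the 53 included a ratio of 1, and those of the 21 past 2.0-fold did not. The intervals of Gpx1, Gstk1 and Gstm7 included the 2.0-fold limit. The highest FPKM values at D0 were those of Gsto1 (791), Gpx3 (584), Prdx1 (496), Gpx4 (375) and Prdx2 (355). At D7 they were those of Gpx4 (1095), Gpx3 (862), Sod1 (728), Mgst1 (662) and Prdx1 (505). Gsto1 thus moved from the first to place 15 of the 63 genes, and Mgst1 from place 15 to 4.

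**Figure D1:**
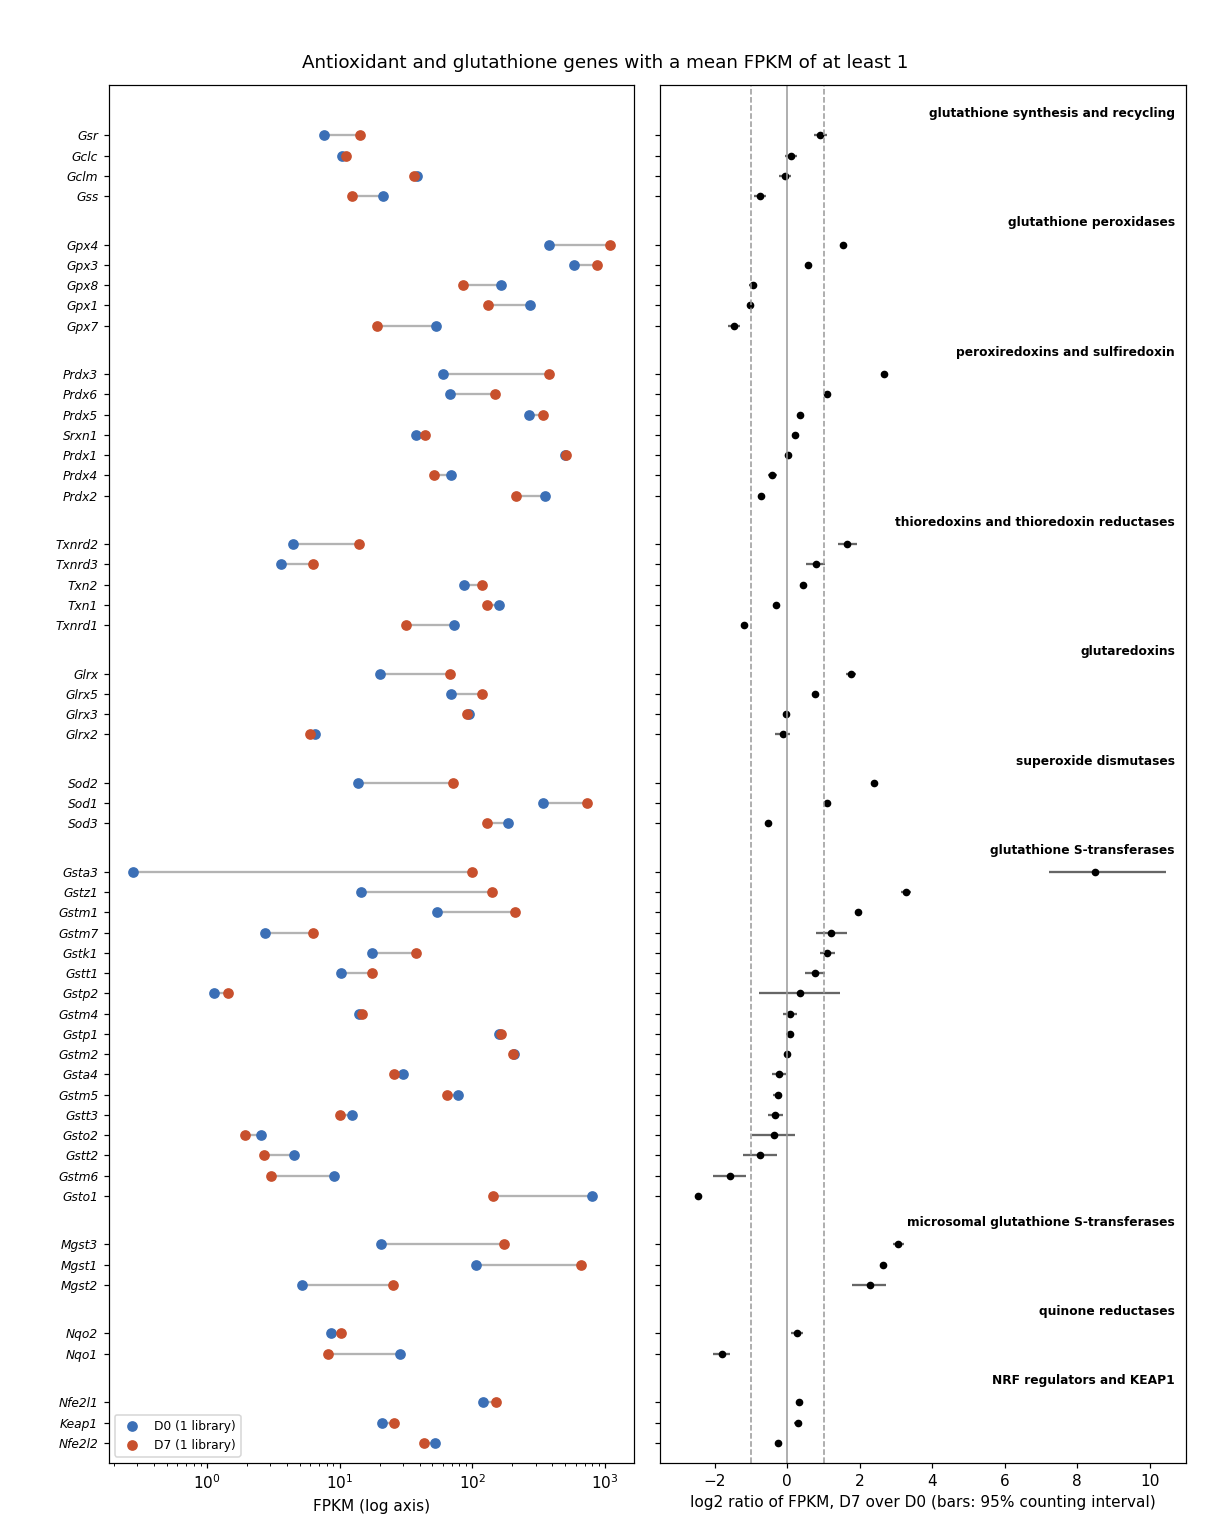
The left panel plots the FPKM (log axis) of the 53 genes with a mean FPKM of at least 1 in the D0 library (blue) and the D7 library (red), and the right panel plots the log2 ratio of D7 to D0 with its 95% counting interval as a bar and dashed lines at 2.0-fold. Genes are grouped by role and sorted by ratio, from Gsta3 at a log2 ratio of 8.49 to Gsto1 at -2.46.

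The regions around the starts of these genes were searched for the core of the antioxidant response element, TGACNNNGC on either strand, since NRF2 is the regulator best known for them. Sequences of RefSeq (GRCm38.p6) from 250 bases before to 50 bases after the start were found for 55 of the 63 genes. The element was in the window of 10 of the 55 genes (18.2%), which include genes listed at 0. Over all 27025 genes with a window, expressed or not, the share was 14%. Among the 8645 genes with a window and a mean FPKM of at least 1 it was 17.3%, but the 55 were not limited in this way. Of the 10 genes, 4 were higher at D7 (Gsta3, Gstm7, Mgst1 and Sod1), 1 was lower (Txnrd1) and 5 were under 2.0-fold (Gclm, Gstm5, Nfe2l2, Prdx1 and Srxn1). The windows of the following 5 genes are shown because a match to the same element stood before genes that were higher, lower and close to equal at D7. Capitals mark the match, which is TGACATTGC on the given strand in Gsta3 and the reverse complement of the element in the others.
Gsta3 (chr1:21240335-21240634, plus strand): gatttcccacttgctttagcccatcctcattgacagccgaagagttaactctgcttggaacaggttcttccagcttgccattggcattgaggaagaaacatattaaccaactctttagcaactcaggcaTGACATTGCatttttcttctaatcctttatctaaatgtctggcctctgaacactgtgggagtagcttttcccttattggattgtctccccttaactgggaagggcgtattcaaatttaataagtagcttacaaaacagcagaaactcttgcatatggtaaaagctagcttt
Mgst1 (chr6:138140277-138140576, plus strand): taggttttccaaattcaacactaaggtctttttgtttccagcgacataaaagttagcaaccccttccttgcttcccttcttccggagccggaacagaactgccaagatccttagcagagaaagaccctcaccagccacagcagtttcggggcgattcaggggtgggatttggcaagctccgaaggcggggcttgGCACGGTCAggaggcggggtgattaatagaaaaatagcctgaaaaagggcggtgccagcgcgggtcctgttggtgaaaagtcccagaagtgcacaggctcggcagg
Sod1 (chr16:90220512-90220811, plus strand): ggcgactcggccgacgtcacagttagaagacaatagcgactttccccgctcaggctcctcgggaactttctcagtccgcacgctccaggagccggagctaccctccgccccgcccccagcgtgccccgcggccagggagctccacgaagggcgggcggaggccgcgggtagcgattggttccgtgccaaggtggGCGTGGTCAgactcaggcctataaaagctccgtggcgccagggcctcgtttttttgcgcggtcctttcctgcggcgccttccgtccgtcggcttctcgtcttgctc
Prdx1 (chr4:116685349-116685648, plus strand): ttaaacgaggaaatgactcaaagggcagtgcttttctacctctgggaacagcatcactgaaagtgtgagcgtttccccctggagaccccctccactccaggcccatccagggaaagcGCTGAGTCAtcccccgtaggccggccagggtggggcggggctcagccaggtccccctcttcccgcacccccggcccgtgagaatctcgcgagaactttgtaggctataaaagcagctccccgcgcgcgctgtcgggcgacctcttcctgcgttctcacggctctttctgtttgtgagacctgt
Txnrd1 (chr10:82858956-82859255, plus strand): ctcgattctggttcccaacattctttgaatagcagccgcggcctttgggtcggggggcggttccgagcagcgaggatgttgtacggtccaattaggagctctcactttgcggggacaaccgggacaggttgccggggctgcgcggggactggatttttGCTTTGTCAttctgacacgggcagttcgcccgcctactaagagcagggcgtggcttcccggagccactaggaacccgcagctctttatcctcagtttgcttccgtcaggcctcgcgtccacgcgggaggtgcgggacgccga
The match of Prdx1, GCTGAGTCA, also holds the AP-1 element TGANTCA, and those of the other 9 genes did not. A match of these letters is a description and not a site of binding. A pair of AGGTCA on either strand with 1 base between them is the element bound by PPARγ with its partner RXR. This exact form was in the windows of 0 of the 55 genes and of 0.0481% of all 27025 genes with a window. At so low a share a set of 55 genes would seldom hold a match, so nothing about these genes follows from it.

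Superoxide dismutases come as a cytosolic, a mitochondrial and a secreted form, and these differed. Sod2, the manganese enzyme of the mitochondrial matrix (chromosome 17, 13006846 to 13040063 of mm10), measured 13.7 FPKM at D0 against 71.7 FPKM at D7. This is a ratio of 5.22 (95% interval 4.95 to 5.51). Of the 90-base stretches of Sod2 transcripts, 14.1% also occur in transcripts of other genes, which makes its value less certain. Sod1, the copper and zinc enzyme of the cytosol (chromosome 16, 90220754 to 90226329), was at 340 FPKM in the D0 library and 728 FPKM in the D7 library. Its ratio of 2.14 (2.05 to 2.23) was past 2.0-fold, but not with scaling to the library median. Sod3, the secreted form, had 185 FPKM in preadipocytes and 129 FPKM in adipocytes, with a D7 to D0 ratio of 0.695 (0.677 to 0.714) that did not reach 2.0-fold. The summed FPKM of the 3 genes was 539 at D0 and 929 at D7. Ccs, which loads copper onto SOD1 and was named after its value was seen, stood at 33.7 FPKM before and 35.1 FPKM after differentiation.

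Of the peroxiredoxins, Prdx3 stood apart. PRDX3 is the peroxiredoxin of the mitochondrial matrix. Its gene (chromosome 19, 60864051 to 60874556) measured 60.1 FPKM at D0 against 379 FPKM at D7, for a ratio of 6.31 (5.99 to 6.65). Prdx6, which reduces phospholipid peroxides with glutathione, was at 68.4 FPKM in the D0 library and 148 FPKM in the D7 library. Its ratio of 2.16 (2.07 to 2.26) was no longer past 2.0-fold with scaling to the library median. The cytosolic Prdx1 had nearly the same FPKM in both libraries, 496 and 505, and its interval from 0.999 to 1.04 included 1. The cytosolic Prdx2 had 355 FPKM in preadipocytes and 215 FPKM in adipocytes, with a ratio of 0.605 (0.584 to 0.625), and it was at least 2.0-fold lower only with that scaling. Prdx5, found in mitochondria, peroxisomes and the cytosol, had 267 FPKM in preadipocytes and 343 FPKM in adipocytes. Prdx4 of the endoplasmic reticulum stood at 68.8 FPKM before and 51.7 FPKM after differentiation. Srxn1, which restores overoxidized peroxiredoxins, measured 37.5 FPKM at D0 against 43.8 FPKM at D7. Prdx3 thereby went from 4.44% to 22.5% of the summed FPKM of this group, and Prdx2 from 26.3% to 12.7%.

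The glutathione peroxidases went in opposite directions. Gpx4, whose product reduces lipid hydroperoxides within membranes, had the highest FPKM of the whole family at D7, where it measured 1095 FPKM against 375 FPKM at D0, for a ratio of 2.92 (2.83 to 3.0). Gpx4 lies on chromosome 10 from 80047166 to 80056439, but the locus deposited for it overlaps 45 other genes of the table, and 26.9% of the 90-base stretches of its transcripts also occur in transcripts of other genes, among them the pseudogene Gpx4-ps2, so its value is uncertain. Gpx1, the abundant cytosolic and mitochondrial form, was at 270 FPKM in the D0 library and 132 FPKM in the D7 library. Its ratio of 0.487 (0.462 to 0.512) was close to the limit of 0.5. Gpx7 and Gpx8 act in the endoplasmic reticulum, and both had lower values at D7 than at D0. Gpx7 had 53.3 FPKM in preadipocytes and 19.1 FPKM in adipocytes, with a D7 to D0 ratio of 0.358 (0.319 to 0.402). Gpx8 stood at 164 FPKM before and 84.5 FPKM after differentiation, and its ratio of 0.517 (0.484 to 0.551) fell short of 2.0-fold, but passed it with scaling to the upper quartile or to the library median. Gpx3, which is secreted into plasma, was high in both libraries, with 584 FPKM before and 862 FPKM after differentiation and a ratio of 1.47 (1.45 to 1.5). Gpx4 held 25.9% of the summed FPKM of the peroxidases at D0 and 50% at D7, and Gpx1 18.7% and 6.00%.

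**Figure D2:**
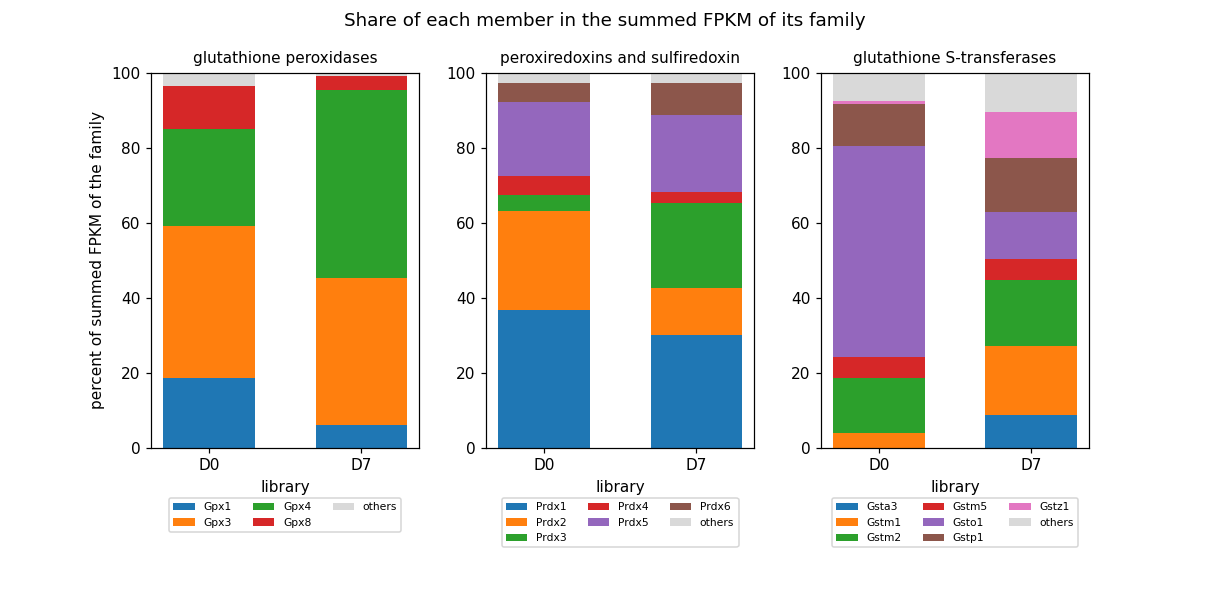
Stacked bars give the percent of the summed FPKM of a family that each member held in the D0 and the D7 library (1 library each), and members under 5% in both libraries are drawn together in grey. Gsto1 went from 56.2% to 12.5% of the glutathione S-transferases, Gpx4 from 25.9% to 50% of the peroxidases and Prdx3 from 4.44% to 22.5% of the peroxiredoxins with sulfiredoxin.

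In the thioredoxin system the reductases of the cytosol and of the mitochondria went opposite ways. Txnrd1, the cytosolic reductase, measured 72.8 FPKM at D0 against 31.9 FPKM at D7, for a ratio of 0.438 (0.415 to 0.461). Txnrd2, the mitochondrial reductase, was at 4.48 FPKM in the D0 library and 14.1 FPKM in the D7 library, or 3.14 times as much (2.62 to 3.78), though its deposited locus also spans Arvcf. Txnrd3, known from testis, had 3.63 FPKM in preadipocytes and 6.27 FPKM in adipocytes. The substrates of these reductases differed less. The cytosolic Txn1 stood at 159 FPKM before and 128 FPKM after differentiation, and the mitochondrial Txn2 had 87.1 and 118. Txnip, which binds and inhibits thioredoxin and was named after its value was seen, measured 111 FPKM at D0 against 352 FPKM at D7, for a ratio of 3.16 (3.07 to 3.26). Nxn, a relative of thioredoxin, was at 118 FPKM in the D0 library and 22.7 FPKM in the D7 library, a D7 to D0 ratio of 0.192 (0.180 to 0.205).

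Among the glutaredoxins, which reduce proteins joined to glutathione, Glrx was higher at D7. It measured 20.0 FPKM at D0 against 67.6 FPKM at D7, for a ratio of 3.38 (3.05 to 3.75). Glrx5, which serves the assembly of iron-sulfur clusters in mitochondria, had 69.5 FPKM in preadipocytes and 118 FPKM in adipocytes, with a D7 to D0 ratio of 1.69 (1.63 to 1.76). The intervals of the other two included 1. Glrx2, a mitochondrial form, stood at 6.55 FPKM before and 5.97 FPKM after differentiation, and Glrx3 had 93.7 and 91.8.

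The places of the proteins were set side by side for 7 enzymes of the mitochondrial matrix, 6 cytosolic counterparts and 5 enzymes of the secretory pathway or outside the cell. Gpx1 and Prdx5, which are found in mitochondria and also elsewhere, were placed in no group. Gstk1, which is found in peroxisomes too, was nevertheless placed in the matrix group and has no counterpart in the cytosolic group. In the matrix group 4 genes were higher at D7 (Sod2, Prdx3, Txnrd2 and Gstk1), 0 were lower, and the median log2 ratio was 1.11. This median is the value of Gstk1, which fell short of 2.0-fold with scaling to the library median. In the cytosolic group 2 were higher (Sod1 and Glrx) and 1 was lower (Txnrd1), with a median of -0.14. In the secretory group 0 were higher and 1 was lower (Gpx7), with a median of -0.52. Of all genes above 0 in both libraries, 18.5% were higher and 13.2% lower. The summed FPKM of the matrix genes went from 259 to 744, that of the cytosolic genes from 1443 to 1676 and that of the secretory genes from 1055 to 1146. The FPKM of Prdx3 was 0.121 times that of Prdx1 at D0 and 0.75 times at D7. For Txnrd2 against Txnrd1 the same quotient was 0.0615 at D0 and 0.442 at D7, for Sod2 against Sod1 it was 0.0403 and 0.0985, and for Txn2 against Txn1 it was 0.548 and 0.922. The glutaredoxins were the exception, since Glrx2 against Glrx went from 0.328 to 0.0883. These groups were drawn up with earlier results of these libraries known, and no test of the difference between them was made. With scaling to the library median the medians were 0.76 for the matrix, -0.49 for the cytosol and -0.88 for the secretory group.

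**Figure D3:**
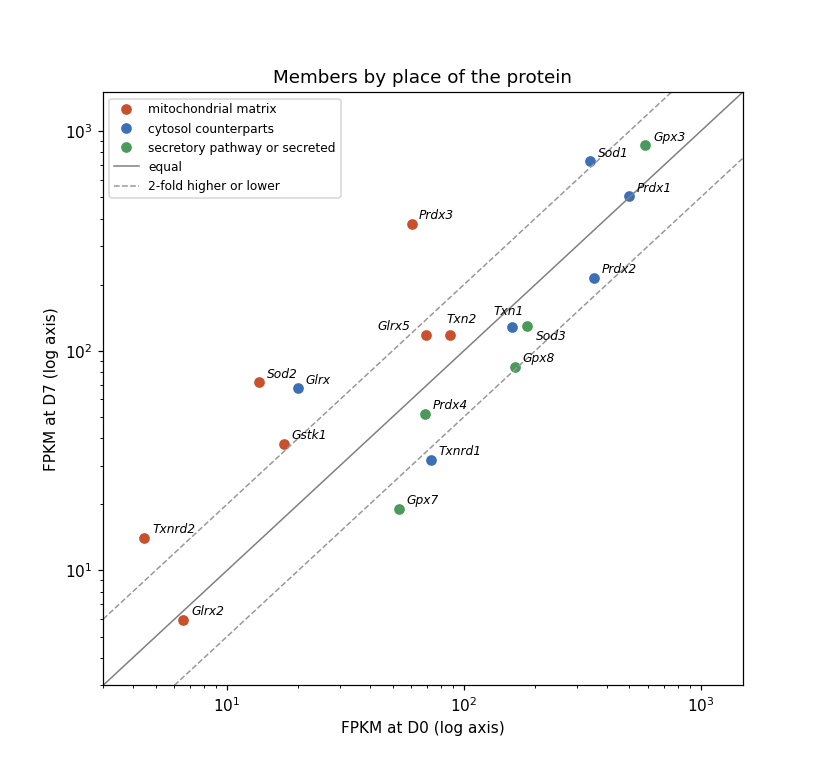
Each point is 1 gene, with its FPKM in the D0 library on the horizontal and in the D7 library on the vertical log axis, colored by the place of its protein, with a solid line for equal values and dashed lines for 2.0-fold. Of the 7 matrix genes 4 lie above the upper dashed line, while Gpx7 and Txnrd1 lie below the lower one.

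Glutathione S-transferases had 21 genes with values, 17 of them above 0 in both libraries, of which 5 were higher and 2 lower at D7. The shares over all genes above 0 in both libraries were 18.5% and 13.2%. Gsto1, an omega class enzyme that reduces rather than conjugates, had the highest FPKM of the family at D0 with 791, and an FPKM of 144 at D7. Its ratio of 0.182 (0.174 to 0.189) was the lowest of the 54 genes. The summed FPKM of the transferases was 1407 in the D0 library and 1150 in the D7 library. Its neighbour Gsto2 on chromosome 19 measured 2.55 FPKM at D0 against 1.95 FPKM at D7, with an interval from 0.511 to 1.16. Gsta3, an alpha class enzyme (chromosome 1, 21240589 to 21265661), had the highest ratio. About 4 fragments at D0 gave it 0.277 FPKM, and about 1299 at D7 gave it 99.9 FPKM. The ratio of 360 has a wide interval from 149 to 1409. Gstz1, the zeta class enzyme that also acts in tyrosine breakdown, was at 14.6 FPKM in the D0 library and 141 FPKM in the D7 library, or 9.64 times as much (8.75 to 10.6), and its deposited locus also holds Pomt2. Gstk1, the kappa class enzyme of mitochondria and peroxisomes, had 17.4 FPKM in preadipocytes and 37.6 FPKM in adipocytes, with a D7 to D0 ratio of 2.16 (1.87 to 2.51). It fell short of 2.0-fold with scaling to the library median.

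The mu class genes lie side by side on chromosome 3, between 107895821 and 108044894, and their values did not move together. Gstm1 stood at 54.6 FPKM before and 211 FPKM after differentiation, and its ratio was 3.87 (3.64 to 4.12). Gstm2, beside it, had 207 and 203, with an interval from 0.938 to 1.03. Gstm7 measured 2.73 FPKM at D0 against 6.34 FPKM at D7, for a ratio of 2.32 (1.73 to 3.14) that passed 2.0-fold neither with a pseudocount of 1 nor with scaling to the library median. Gstm6 went the other way, from 9.09 FPKM at D0 to 3.05 FPKM at D7 with a ratio of 0.335 (0.243 to 0.456). Gstm4 had an FPKM of 13.9 and 14.8, Gstm5 of 77.7 and 64.5, and Gstm3 was listed at 0 in both. Of the 90-base stretches of Gstm1 transcripts, 8.46% also occur in transcripts of other genes, against 0.952% for Gstm2 and 1.54% for Gstm6. Values of such near copies are uncertain, because the handling of reads that match several genes is not given in the sources used here.

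The other transferases were under 2.0-fold. Gstp1, the pi class enzyme, was at 158 FPKM in the D0 library and 165 FPKM in the D7 library, and its near copy Gstp2 had 1.14 and 1.44. Both intervals included 1, and 26.7% of the stretches of Gstp1 and 48.2% of those of Gstp2 occur in other genes. Gsta4, which conjugates products of lipid peroxidation, had 30 FPKM in preadipocytes and 25.5 FPKM in adipocytes. The theta class genes had an FPKM of 10.2 and 17.4 for Gstt1, of 4.54 and 2.72 for Gstt2 and of 12.5 and 10.0 for Gstt3.

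All 3 microsomal glutathione S-transferases were higher at D7, beside 18.5% of all genes above 0 in both libraries. No other role showed this, though most of the other roles hold more genes. The microsomal transferases are small membrane proteins, and Mgst1 is known for reducing lipid peroxides in the endoplasmic reticulum and the outer mitochondrial membrane. Mgst1 (chromosome 6, 138140316 to 138156755) stood at 106 FPKM before and 662 FPKM after differentiation, and its ratio was 6.22 (5.95 to 6.51). Mgst3 (chromosome 1, 167371966 to 167393841) measured 20.6 FPKM at D0 against 172 FPKM at D7, for a ratio of 8.33 (7.5 to 9.26). Mgst2 was lowest, with 5.23 and 25.2 and a ratio of 4.81 (3.45 to 6.67). Together they went from an FPKM of 132 to 859, or 6.49 times, while the 21 other transferases together had a ratio of 0.817, or 1.63 without Gsto1 (616 to 1006 FPKM).

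Of the 4 genes that make or recycle glutathione, 0 reached 2.0-fold. Over all genes above 0 in both libraries 18.5% were higher and 13.2% lower, so this count does not set the 4 genes apart. Gclc and Gclm encode both subunits of glutamate-cysteine ligase, the first step of the synthesis. Gclc was at 10.4 FPKM in the D0 library and 11.2 FPKM in the D7 library, and Gclm had 38.1 and 36.2, and both intervals included 1. Gss, the second step, had 21.1 FPKM in preadipocytes and 12.5 FPKM in adipocytes, with a D7 to D0 ratio of 0.592 (0.524 to 0.667), which passed 2.0-fold only with scaling to the library median. Gsr, which returns oxidized glutathione to its reduced form, stood at 7.62 FPKM before and 14.3 FPKM after differentiation, and its ratio was 1.88 (1.66 to 2.13).

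Of the regulators, Nfe2l2 itself measured 51.9 FPKM at D0 against 43.3 FPKM at D7, for a ratio of 0.834 (0.785 to 0.886). Keap1 was at 20.8 FPKM in the D0 library and 25.5 FPKM in the D7 library. Nfe2l1, the related factor of the endoplasmic reticulum, had 121 and 152. Nfe2l3 had about 1 fragment at D0 and 6 at D7, and its ratio of 7.06 has an interval from 0.857 to 325 that includes 1. Nqo1, a quinone reductase often used as a readout of NRF2, had 28.6 FPKM in preadipocytes and 8.15 FPKM in adipocytes, with a D7 to D0 ratio of 0.285 (0.243 to 0.332). Its relative Nqo2 stood at 8.55 FPKM before and 10.3 FPKM after differentiation, and the deposited locus of Nqo2 also holds Serpinb6a and Ripk1.

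Selenocysteine, the rare amino acid at the active site of several of these enzymes, is annotated by GENCODE M21 in 7 of the 63 genes. Of these, Gpx4 and Txnrd2 were higher, Gpx1 and Txnrd1 were lower, Gpx3 and Txnrd3 were under 2.0-fold and Gpx2 was at 0. The members thus shared no direction. In the list of 11 genes of selenoprotein synthesis and transport, 2 were higher and 1 was lower, against 1 and 2 with scaling to the library median. Without that scaling 18.5% of all genes above 0 in both libraries were higher and 13.2% lower, so these counts do not set the list apart. Sepp1 (selenoprotein P), a secreted carrier of selenium, measured 47.9 FPKM at D0 against 1101 FPKM at D7, for a ratio of 23.0 (21.9 to 24.0). The other two that passed 2.0-fold, named here after their values were seen, were Sepsecs, which makes selenocysteine on its tRNA, with an FPKM of 3.60 and 7.35, and the receptor Lrp8, with 2.28 and 0.277.

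Other genes of the pathway were taken from 6 lists with 111 genes in all, of which 107 were above 0 in both libraries. Of these, 41 were higher and 10 lower at D7, with a median log2 ratio of 0.30. Over all 14986 genes above 0 in both libraries, 18.5% were higher and 13.2% lower. The counts of the single lists below are to be read beside these shares. With scaling to the library median, 31 were higher and 18 lower, beside 17.0% and 23.0% of all 16671 genes above 0 in a library. NADPH supply had 9 of 14 genes higher and 2 lower, and a median log2 ratio of 1.44, against 7 and 2 and a median of 1.09 with that scaling. Me1, the cytosolic malic enzyme, was at 66.2 FPKM in the D0 library and 1881 FPKM in the D7 library, or 28.4 times as much (27.6 to 29.3). Aldh1l1, which makes NADPH from a folate, had a ratio of 16.0 (14.6 to 17.7), G6pdx, the entry of the pentose phosphate pathway, of 7.51 (7.12 to 7.92), and Taldo1 of the same pathway of 5.03 (4.80 to 5.27). The 2 lower genes, named after their values were seen, act in mitochondria. Mthfd2 had 54.8 FPKM in preadipocytes and 25.6 FPKM in adipocytes, and Nnt, a transhydrogenase known to lack some exons in C57BL/6J mice, had 22.9 and 10.3.

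Other NRF2 targets and partners had 3 of 21 genes higher and 1 lower, and a median log2 ratio of 0.01. With scaling to the library median 0 were higher and 2 lower, with a median of -0.35, so that the calls of Fth1, Cbr1 and Blvrb were lost. Fth1, the ferritin heavy chain, stood at 1694 FPKM before and 4163 FPKM after differentiation, and its ratio was 2.46 (2.43 to 2.48). Cbr1, a carbonyl reductase, had a ratio of 2.19 (2.02 to 2.37) and Blvrb, a biliverdin reductase, of 2.01 (1.82 to 2.21). Hmox1, the heme oxygenase, measured 280 FPKM at D0 against 130 FPKM at D7, for a ratio of 0.466 (0.447 to 0.485).

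Cysteine supply and glutathione turnover had 6 of 20 genes higher and 2 lower, and a median log2 ratio of -0.01. With scaling to the library median 5 were higher and 5 lower, with a median of -0.32, and Slc25a39 was no longer past 2.0-fold. Slc1a5, a carrier of neutral amino acids, was at 21.0 FPKM in the D0 library and 556 FPKM in the D7 library, or 26.4 times as much (24.9 to 28.0). Dpep1, a dipeptidase that splits the last bond of degraded glutathione, had 12.5 FPKM in preadipocytes and 240 FPKM in adipocytes, with a D7 to D0 ratio of 19.2 (17.6 to 20.9). Oplah, which returns 5-oxoproline to glutamate, had a ratio of 6.30 (5.54 to 7.19), and Slc25a39, the mitochondrial glutathione carrier, of 2.18 (2.08 to 2.29). The cystine carrier Slc7a11, named after its value was seen, was low in both libraries, at 0.736 and 0.575 FPKM, and its interval from 0.596 to 1.02 included 1.

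The remaining peroxide, thiol and methionine repair enzymes had 10 of 26 genes higher and 2 lower, and a median log2 ratio of 0.11, against 8 higher and 5 lower and a median of -0.24 with scaling to the library median. Tst, a mitochondrial sulfur transferase, stood at 2.34 FPKM before and 28.7 FPKM after differentiation, and its ratio was 12.3 (9.20 to 17.0). Aifm2, which keeps coenzyme Q reduced against lipid peroxidation, measured 7.92 FPKM at D0 against 78.0 FPKM at D7, for a ratio of 9.85 (8.98 to 10.8). Msra, a methionine sulfoxide reductase, had a ratio of 6.45 (5.61 to 7.46). Cat, the catalase of peroxisomes, was named after its value was seen and was at 38.0 FPKM in the D0 library and 180 FPKM in the D7 library, or 4.73 times as much (4.50 to 4.97).

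Oxidant sources had 11 of 15 genes higher and 2 lower, and a median log2 ratio of 1.57. The higher genes include Hao1 with about 1 fragment at D0 and 3 at D7, and an interval from 0.284 to 185. The lower genes include Duox1 with about 11 fragments at D0 and 1 at D7. Among genes with a mean FPKM of at least 1, 9 were higher and 1 lower. With scaling to the library median 10 were higher and 2 lower, with a median of 1.22, and a pseudocount of 1 gave a median of 1.09. Xdh, the xanthine dehydrogenase, had 13.0 FPKM in preadipocytes and 74.7 FPKM in adipocytes, with a D7 to D0 ratio of 5.75 (5.41 to 6.12). Ero1l, an oxidase of the endoplasmic reticulum, had a ratio of 2.97 (2.86 to 3.10), and Nox4, an NADPH oxidase, of 2.61 (2.37 to 2.87). Subunits of the phagocyte oxidase in this list, named after their values were seen, differed. Cyba, which also pairs with other NADPH oxidases, had 142 FPKM in preadipocytes and 69.4 FPKM in adipocytes, with a ratio of 0.489 (0.447 to 0.533). Cybb had 0.580 and 2.93 FPKM, Ncf1 0.696 and 4.2 FPKM and Ncf4 0.365 and 0.990 FPKM, and these 3 were higher at D7. The macrophage markers were higher at D7 too, and their part in these values was not tested.

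**Figure D4:**
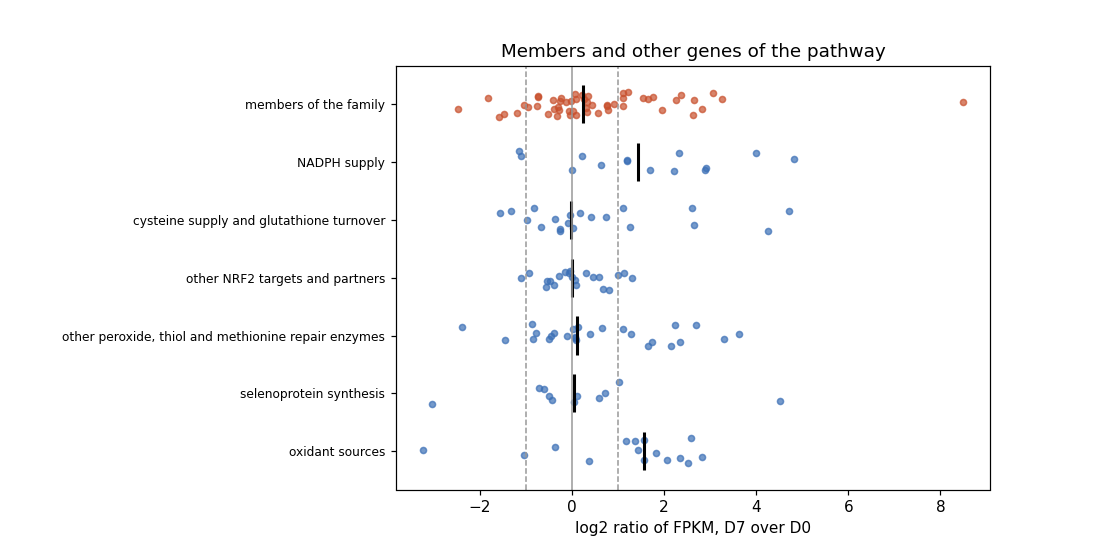
Points are the log2 ratios of FPKM, D7 over D0, of single genes above 0 in both libraries, for the antioxidant and glutathione genes (red) and for 6 other lists of the pathway (blue), with the median of each list as a black bar and dashed lines at 2.0-fold. The medians of NADPH supply (1.44) and oxidant sources (1.57) lie above 2.0-fold, and those of the other lists lie between -0.01 and 0.25.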

How the data were processed

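RNA-Seq of 1 library of brown preadipocytes (D0) and 1 of brown adipocytes (D7) was analysed. The authors filtered the reads, removed duplicates and rRNA reads, and aligned the rest to mm10 and gene sequences with SOAP2, while the submitters' processing notes list Bowtie2. They deposited 1 FPKM value per gene and library. Of 27324 genes listed, 3963 held no value. The use of strand in counting is not given in the sources used here.

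Ratios of D7 to D0 were computed from the deposited FPKM values without a pseudocount, and 2.0-fold was the limit. The study used the same limit in GeneSpring. The scaling it applied there is not given in the sources used here, and the unscaled calls are not those of the study. Without scaling, 2767 of all genes were higher and 1980 lower. With a floor of 0.01 and scaling to the library median, 2836 were higher and 3832 lower. Denominators were found from 649 single-exon genes, where 100% of low values (20 fragments or fewer) lay within 0.1 of a whole number of fragments. With lengths shuffled among genes, 21.4% at D0 and 19.6% at D7 were. A length correction of 179 bp at D0 and 182 bp at D7 was used. Lengths were those of the named GENCODE M21 transcript for 56 members, of the coding transcript nearest to the deposited locus for 6 and of the longest transcript for 1, so numbers of fragments are approximate. Scripts were tested on simulated data.

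The members, the lists and their alternatives were chosen with earlier results of these data known. Members with a mean FPKM of at least 1 are named, and of the other lists at most 4 genes past 2.0-fold with a mean FPKM of at least 10, and names outside this rule are marked. Results on some items are not reported here. Markers of adipocytes, brown adipocytes, progenitors, dividing cells, macrophages, endothelium, erythroid cells and skeletal muscle were checked. Of 8 progenitor genes 2 were higher and 2 lower, and of 6 skeletal muscle genes 2 were lower, with Acta1 at an FPKM of 45.4 and 1.73. Selenocysteine was taken from GENCODE in place of protein sequences. Software was Python 3.11.15 with scipy 1.17.1, pandas 2.3.3, matplotlib 3.10.9 and numpy 2.4.6.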

Additional observations from a re-analysis of the deposited data

How the results depend on the processing

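With a pseudocount of 0.1 or 1, TPM, centring on the median log2 ratio, the upper quartile, a trimmed mean, a mean FPKM of at least 1, at least 10 fragments or values of one symbol summed, the number of higher members ranged from 14 to 16, that of lower members from 6 to 7 and their median log2 ratio from 0.18 to 0.28. A floor of 0.01 with the library median gave 13 higher and 11 lower members and a median of -0.11, and 31 higher and 18 lower genes of the other pathway lists with a median of -0.01. Sod1, Prdx6, Gstk1 and Gstm7 then were under 2.0-fold, and Prdx2, Gpx8, Gss and Gstt2 passed it. At 4.0-fold, 8 members were higher and 1 was lower, and 22 and 3 of the other genes, beside 8.08% and 3.86% of all genes. No member past 2.0-fold changed its sign, and 9 members under 2.0-fold did under the library median. No paired analysis was possible because each stage had 1 library. The spread between cultures is unknown.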
